A study of Mus musculus with 5 samples.

Results

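Transcripts of 10 genes of prostanoid synthesis, inactivation and reception were followed in single cells sorted from mouse liver, out of 31053 genes counted. The members were listed by name: the cyclooxygenase genes Ptgs1 and Ptgs2, the terminal synthase genes Tbxas1, Ptges, Ptgis and Ptgds, the inactivating dehydrogenase gene Hpgd, and the receptor genes Ptger2, Ptger4 and Tbxa2r. All 10 were present in the 5 deposited matrices. Levels are counts of unique molecular identifiers (UMIs, 1 per captured transcript) summed over cells and divided by all UMIs of those cells, times 1000000 (CPM). They were taken for each whole library and for 3 cell classes. Mesenchymal cells had 20 or more UMIs of Dcn, Col3a1 and Colec11 together per 10000 UMIs. Endothelial cells had 3 or more of Pecam1, Cdh5, Kdr, Stab2 and Ptprb detected, and macrophage cells had 3 or more of C1qa, C1qb, Csf1r and Adgre1.

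The mice were males on a C57BL/6J background that all carried the Rosa26mTmG reporter and a Col1a1-Cre transgene. The reporter turns green in cells in which the Col1a1 promoter has driven Cre, so green marks past or present promoter activity, not a cell type. Mice of the DEN+WAD groups received diethyl nitrosamine (DEN), a liver carcinogen, at 10 mg/kg when 2 weeks old, and from 6 weeks a liquid Western alcohol diet (WAD) with 3.5% v/v ethanol for 5 months. Chow mice received saline and chow on the same schedule. Non-parenchymal liver cells were sorted by the green reporter and by the autofluorescence of stored vitamin A (VitA), a property of quiescent hepatic stellate cells. There was 1 library each of VitA+Col1a1+ DEN+WAD, VitA-Col1a1+ DEN+WAD, VitA+Col1a1+ chow, VitA-Col1a1+ chow and VitA-Col1a1- DEN+WAD, and the sources do not say how many mice went into each. Cells of 1 library are not replicates, so no group difference was tested. The intervals given are 95% intervals, exact Poisson for levels, conditional binomial for ratios and Clopper-Pearson for shares of cells, and they cover counting error only.

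Prostanoids are made on demand from arachidonic acid released from membranes. A cyclooxygenase turns it into an unstable endoperoxide, and the terminal synthase that a cell holds decides which product follows, prostaglandin E, prostacyclin, prostaglandin D or thromboxane. The products act close to their source on G protein-coupled receptors, and a dehydrogenase inactivates prostaglandins after uptake. In liver, non-parenchymal cells such as macrophages, sinusoidal endothelial cells and stellate cells are known to make or sense them.

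The libraries held 10481 cells (VitA+Col1a1+ DEN+WAD), 2729 (VitA-Col1a1+ DEN+WAD), 259 (VitA+Col1a1+ chow), 668 (VitA-Col1a1+ chow) and 9870 (labelled VitA-Col1a1-), with medians from 9105.5 to 24077 UMIs per cell. The chow libraries were the smallest, 6145748 and 14996899 UMIs in all, so 3 UMIs, used as a floor for a count of 0, stood for 0.488 CPM in the whole VitA+Col1a1+ chow library against 0.020 in the VitA+Col1a1+ DEN+WAD library. Between 0 and 21 cell barcodes were shared by any pair of libraries. Mesenchymal cells made up 97.4%, 80.0%, 94.2% and 91.9% of the Col1a1+ libraries in the order above, and 47.3% of the library labelled VitA-Col1a1-. That library also held 2350 endothelial and 750 macrophage cells, and its 4672 mesenchymal cells carried Col1a1 at 2048 CPM. Its RNA thus went against its label, it is called by its label throughout, and no direction is drawn from that label. Cells that met 2 or more of the class rules were left out of the classes, 44, 30, 3, 1 and 829 cells by library, and no doublet caller was run. No macrophage cells were found in the 4 Col1a1+ libraries, and the 9 endothelial cells of the VitA+Col1a1+ chow library were too few to be given. The label of every sample reads hepatic stellate cell. Within mesenchymal cells the 6 stellate markers (Lrat, Reln, Ecm1, Hgf, Ngfr and Pth1r) summed to 14858 and 16297 CPM in the VitA+Col1a1+ libraries, DEN+WAD and chow, and to 6784 and 1616 CPM in the VitA-Col1a1+ libraries.

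The 10 genes divided by cell class. Ptgs1 and Hpgd were highest in endothelial and macrophage cells, and Tbxas1 was high in macrophage cells alone among the 3 classes. Ptges, Ptgis and Ptger2 had their highest levels in mesenchymal cells. Ptgs2 was at 3.14 CPM or below in endothelial cells, and its mesenchymal level ran from 0 to 96.7 CPM by library. Where macrophage cells were found, they held Ptgs2 at 23.0 CPM, against 22.6 CPM in mesenchymal cells beside them. Tbxa2r was found in mesenchymal and endothelial cells and was almost without UMIs in macrophage cells, and Ptgds was close to its floor in every class.

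**Figure D1:**
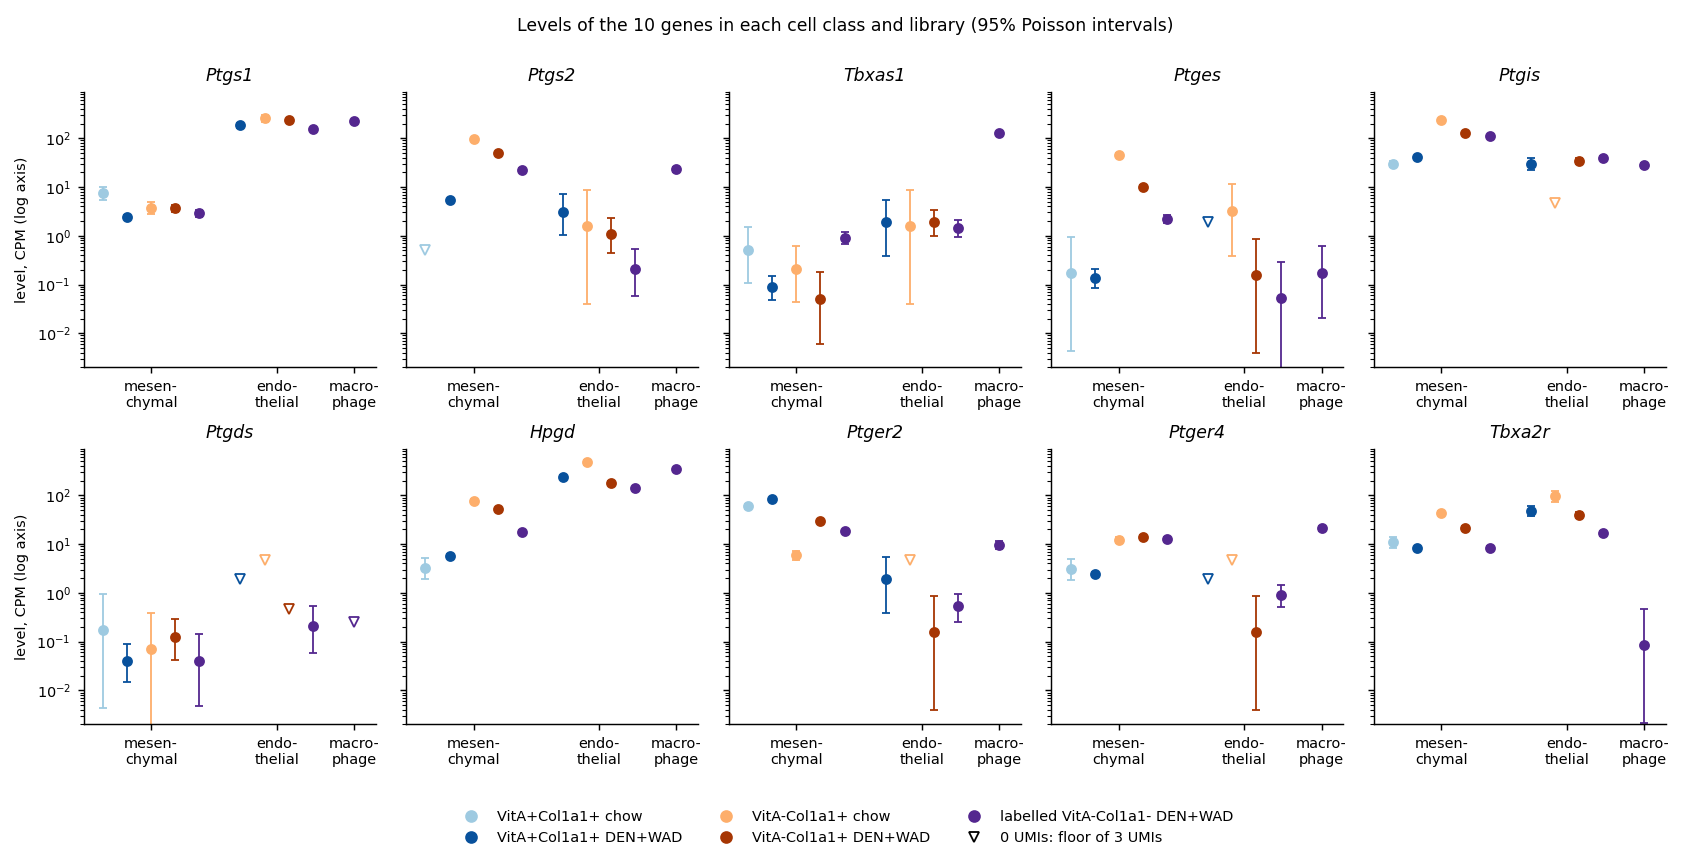
Level of each of the 10 genes (vertical axis, CPM, log scale) in mesenchymal, endothelial and macrophage cells of each library, with points for levels, bars for 95% Poisson intervals and open triangles for the floor where 0 UMIs were counted. Ptgs1 sits between 158 and 257 CPM in the 4 endothelial groups and at 7.39 CPM or below in all 5 mesenchymal groups, whereas Ptger2 runs the other way.

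Ptgs1 encodes the constitutive cyclooxygenase. In endothelial cells it was at 186 CPM (165 to 209) in VitA+Col1a1+ DEN+WAD, 234 (222 to 246) in VitA-Col1a1+ DEN+WAD, 257 (219 to 299) in VitA-Col1a1+ chow and 158 (153 to 164) in the library labelled VitA-Col1a1-. Macrophage cells of the last library held 229 CPM (220.1 to 238). In mesenchymal cells the DEN+WAD levels were 2.41 CPM (VitA+Col1a1+) and 3.64 CPM (VitA-Col1a1+), the chow levels 7.39 CPM (VitA+Col1a1+) and 3.75 CPM (VitA-Col1a1+), and the level in the library labelled VitA-Col1a1- was 2.90 CPM. The endothelial and mesenchymal ranges were far apart in every library where both were given. Mesenchymal Ptgs1 was 1.29% to 1.84% of the endothelial level, and genes of a sinusoidal endothelial list outside the class rule summed to 11.6 to 54.5 CPM in mesenchymal and 4736 to 7867 CPM in endothelial cells. In the library labelled VitA-Col1a1-, Ptgs1 was 54.5-fold higher in endothelial than in mesenchymal cells (46.1 to 64.8) and 1.45-fold higher in macrophage than in endothelial cells (1.37 to 1.52). Left out were 410 cells that met the mesenchymal and endothelial rules and 305 that met the endothelial and macrophage rules. The ratios with them kept are not given here.

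Ptgs2 encodes the inducible cyclooxygenase, an immediate-early gene in many cells. Mesenchymal cells held it at 5.39 CPM (5.03 to 5.78) in VitA+Col1a1+ DEN+WAD, 50.2 (48.1 to 52.5) in VitA-Col1a1+ DEN+WAD, 96.7 (91.6 to 102) in VitA-Col1a1+ chow and 22.6 (21.3 to 24.0) in the library labelled VitA-Col1a1-. The 244 mesenchymal cells of VitA+Col1a1+ chow held 0 UMIs, with an upper limit of 0.634 CPM. None of these 5 intervals overlapped another. They treat UMIs as independent, while Ptgs2 UMIs lay in few cells, as given below, so they are too narrow to rank the libraries. Endothelial cells were at 3.14, 1.10, 1.58 and 0.210 CPM in the order used for Ptgs1, and macrophage cells at 23.0 CPM (20.3 to 25.9), 1.01-fold the mesenchymal level of the same library (0.885 to 1.16).

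Ptges encodes the inducible microsomal synthase of prostaglandin E. It was at 45.1 CPM (41.6 to 48.7) in mesenchymal cells of VitA-Col1a1+ chow, 10.1 (9.16 to 11.2) in VitA-Col1a1+ DEN+WAD and 2.21 (1.82 to 2.66) in the library labelled VitA-Col1a1-. Both VitA+Col1a1+ libraries were near 0, with 20 UMIs (0.136 CPM) in DEN+WAD and 1 UMI (0.172 CPM) in chow. Over the 9 library by class groups of 50 or more cells, log2(CPM + 1) of Ptges and Ptgs2 had a Pearson correlation of 0.80, and that of Ptges and Ptgis 0.94. Groups of 1 library share its depth and preparation, and no p-value was attached. The bases upstream of Ptgs2 and Ptges are shown because these genes shared the largest steps between the vitamin A gates. They are RefSeq sequence of GRCm38.p6, the 250 bases before the start used in the RefSeq table, at chr1:150099781-150100030 (plus strand) for Ptgs2 and chr2:30903298-30903547 (minus strand) for Ptges, written 5′ to 3′ with the GC box letters GGGCGG in capitals:
Ptgs2: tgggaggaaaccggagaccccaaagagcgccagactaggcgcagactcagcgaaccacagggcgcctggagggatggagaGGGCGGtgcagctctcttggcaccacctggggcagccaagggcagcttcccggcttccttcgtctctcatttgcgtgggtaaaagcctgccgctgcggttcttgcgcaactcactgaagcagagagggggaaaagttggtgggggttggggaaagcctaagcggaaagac
Ptges: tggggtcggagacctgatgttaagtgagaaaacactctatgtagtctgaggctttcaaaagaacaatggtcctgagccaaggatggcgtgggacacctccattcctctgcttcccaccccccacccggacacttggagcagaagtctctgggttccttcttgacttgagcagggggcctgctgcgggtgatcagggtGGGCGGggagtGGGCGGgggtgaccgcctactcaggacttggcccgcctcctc

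For Ptges the RefSeq start lies inside the longer gene that GENCODE M21 annotates, whose bounds are given with the gene positions, so its window is not the one before the GENCODE start. The GC box stood 170 bases before the Ptgs2 start, and in Ptges 53 and 42 bases before the RefSeq start. Searched as GGGCGG or its reverse complement CCGCCC, it was found in 32.7% of 32841 RefSeq promoters over the same 250 bases and in 4 of the 9 members with an entry (Ptgs2, Ptges, Hpgd and Ptger4). The letters TATAAA, searched on both strands, were found in 12.4% of promoters and in 1 of the 9 (Tbxas1), and CACGTG, which reads the same on both strands, in 6.02% and in 0 of the 9. These motifs do not overlap one another in letters, and a match describes the window only. Ptgis had no entry.

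Ptgis encodes prostacyclin synthase. Its mesenchymal level was 41.7 CPM (40.7 to 42.8) in VitA+Col1a1+ DEN+WAD, 127 (124 to 131) in VitA-Col1a1+ DEN+WAD, 29.9 (25.6 to 34.7) in VitA+Col1a1+ chow, 231 (223 to 239) in VitA-Col1a1+ chow and 113 (110.3 to 116) in the library labelled VitA-Col1a1-. The VitA+Col1a1+ libraries were the lowest. Endothelial cells of DEN+WAD held 30.2 CPM (VitA+Col1a1+), 34.6 CPM (VitA-Col1a1+) and 39.5 CPM (labelled VitA-Col1a1-), and there were 0 UMIs in the 36 endothelial cells of VitA-Col1a1+ chow (upper limit 5.81 CPM). Those 3 endothelial levels were 72.3%, 27.2% and 34.9% of the mesenchymal level of the same library, and the stellate gene Lrat, which is outside the class rules, was at 1.12%, 1.67% and 4.52% of its mesenchymal level in the same cells.

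Tbxas1 encodes thromboxane synthase. Macrophage cells held 129.6 CPM (123 to 136), 142-fold the mesenchymal level of that library (106 to 194) and 91.3-fold the endothelial level (62.5 to 139). Both ratios leave out cells that met 2 or more class rules. The 305 cells that met the endothelial and macrophage rules held Tbxas1 near the macrophage level, as given below. All 4 endothelial groups lay between 1.42 and 1.89 CPM. Mesenchymal cells held 46 UMIs in the library labelled VitA-Col1a1- (0.915 CPM) and 2 to 13 UMIs in each of the other 4 libraries. Platelets, the best-known source of thromboxane, were marked in the macrophage class by Ppbp at 0.171 CPM and Itga2b at 0.257 CPM, while Pf4 stood at 51.7 CPM. Ptgds, the lipocalin-type prostaglandin D synthase gene, had 1 to 6 UMIs in each mesenchymal class and 0 UMIs in macrophage cells.

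Hpgd encodes the dehydrogenase that oxidises prostaglandins to inactive products. Macrophage cells held 350.4 CPM (339.7 to 361). Endothelial cells held 241 CPM (218 to 267) in VitA+Col1a1+ DEN+WAD, 183 (173 to 194) in VitA-Col1a1+ DEN+WAD, 477 (425 to 534) in VitA-Col1a1+ chow and 144 (139 to 149.6) in the library labelled VitA-Col1a1-. Mesenchymal levels were 5.81 and 3.26 CPM in VitA+Col1a1+ DEN+WAD and chow, 53.7 and 77.5 CPM in VitA-Col1a1+ DEN+WAD and chow, and 17.9 CPM in the library labelled VitA-Col1a1-. As with Ptgs2 and Ptges, both VitA+ libraries lay below the other 3.

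Ptger2 encodes a Gs-coupled receptor of prostaglandin E, which raises cyclic AMP. It had the opposite order in mesenchymal cells: 82.8 CPM (81.4 to 84.3) in VitA+Col1a1+ DEN+WAD, 59.4 (53.3 to 66.0) in VitA+Col1a1+ chow, 30 (28.3 to 31.7) in VitA-Col1a1+ DEN+WAD, 18.4 (17.2 to 19.6) in the library labelled VitA-Col1a1- and 5.87 (4.68 to 7.28) in VitA-Col1a1+ chow. No neighbours in that order had overlapping intervals. Macrophage cells held 9.59 CPM (7.90 to 11.5), 0.522-fold the mesenchymal level of their library. Endothelial cells had 0.0286-fold that level.

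Ptger4 encodes the other Gs-coupled receptor of prostaglandin E among the members. It was at 14.1 CPM (12.9 to 15.3) in VitA-Col1a1+ DEN+WAD, 12.3 (10.6 to 14.3) in VitA-Col1a1+ chow and 12.7 (11.7 to 13.7) in the mesenchymal cells labelled VitA-Col1a1-, and these intervals overlapped. In VitA+Col1a1+ DEN+WAD and chow it was at 2.46 (2.22 to 2.73) and 3.09 (1.83 to 4.89), which overlapped each other and lay below the other 3. Macrophage cells held 21 CPM (18.4 to 23.8). So the E receptor genes ran in opposite directions between the gates, Ptger2 higher and Ptger4 lower in VitA+ cells.

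Tbxa2r encodes the thromboxane receptor, which contracts smooth muscle and is known from vessel walls and platelets. Mesenchymal cells held 8.39 CPM (7.93 to 8.88) in VitA+Col1a1+ DEN+WAD, 11 (8.47 to 14.0) in VitA+Col1a1+ chow, 21.6 (20.2 to 23.1) in VitA-Col1a1+ DEN+WAD, 44.3 (40.9 to 47.9) in VitA-Col1a1+ chow and 8.30 (7.52 to 9.13) in the library labelled VitA-Col1a1-. The intervals of both VitA+Col1a1+ libraries and of the library labelled VitA-Col1a1- overlapped one another. Endothelial levels were 47.8, 39.5, 96.1 and 16.7 CPM in the order used for Ptgs1, above the mesenchymal level of the same library each time. In macrophage cells, which were high in Tbxas1, there was 1 UMI of Tbxa2r (0.0857 CPM).

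Counted over the library labelled VitA-Col1a1-, 9 members had a mean level of 1 CPM or more in endothelial and mesenchymal cells. Ptgs1, Hpgd and Tbxa2r were 2-fold or more higher in endothelial cells, 3 of 9, where 17.0% of 12698 genes were. Ptgs2, Ptges, Ptgis, Ptger2 and Ptger4 were 2-fold or more lower, 5 of 9, again against 17.0% of genes. Between macrophage and mesenchymal cells, 3 of 9 were higher (Ptgs1, Tbxas1 and Hpgd, against 15.3% of genes) and 3 lower (Ptges, Ptgis and Tbxa2r, against 31.5%). Between macrophage and endothelial cells, 5 of 8 were higher (Ptgs2, Tbxas1, Hpgd, Ptger2 and Ptger4, against 14.1%) and only Tbxa2r was lower (against 33.9%). The median log2 ratio over the members was -1.52 in the first comparison, 0.02 in the second and 2.74 in the third, and over all genes 0.09, -0.38 and -0.46.

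DEN+WAD was compared with chow within each gate, to see how the pathway's transcripts differed between livers on the tumor-promoting regimen and control livers. In VitA+Col1a1+ mesenchymal cells Ptgs2 had 793 UMIs in DEN+WAD against 0 in chow. With chow set to its floor this was at least 10.5-fold higher, and the counting interval of that ratio began at 8.49. That interval is too narrow, since 273 of the 10213 DEN+WAD cells held all these UMIs and 35 of them held 50%. After thinning to 2000 UMIs per cell, the DEN+WAD share of cells, 0.755%, lay below the chow upper limit of 1.52%. At full depth the DEN+WAD share, 2.67%, lay above the chow upper limit. Ptgs1 was lower in DEN+WAD, at 0.326-fold (0.237 to 0.459). The 5 genes of the endothelial rule summed to 1.91 CPM in these DEN+WAD cells and to 8.59 CPM in the chow cells. Whether endothelial RNA was part of the Ptgs1 difference was not tested. Of 7 members measured at a mean of 1 CPM or more, 1 was 2-fold or more higher and 1 lower, where 2.80% and 4.32% of 11609 genes were. The other 5 lay within 2-fold: Ptgis at 1.4-fold (1.20 to 1.63), Ptger2 at 1.39-fold (1.25 to 1.56), Hpgd at 1.78-fold (1.13 to 2.97), Ptger4 at 0.797-fold (0.497 to 1.36) and Tbxa2r at 0.764-fold (0.594 to 0.998). The direction of Hpgd rested on 3 chow cells that met 2 class rules, since with them kept its log2 ratio was -0.53 in place of 0.83. The median log2 ratio of the 7 was 0.48, and that of all genes -0.05.

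Over whole VitA+Col1a1+ libraries the ratio of Hpgd pointed the other way. It was at 8.89 CPM in DEN+WAD and 23.4 in chow, 0.379-fold (0.319 to 0.454). Endothelial cells made up 1.69% and 3.47% of the cells of those libraries, and the endothelial list summed to 109.9 and 371 CPM. In a whole library fewer cells of a type and less RNA per cell cannot be told apart. Ptgs1 was at 5.10 and 14.6 CPM, 0.348-fold (0.280 to 0.438), close to its ratio in mesenchymal cells alone. Of the 7 members 1 was 2-fold or more higher (Ptgs2, at least 10.9-fold) and 2 lower, against 2.55% and 6.04% of genes.

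In VitA-Col1a1+ mesenchymal cells the ratio of Ptgs2 was 0.520-fold (0.485 to 0.557), that of Ptges 0.225-fold (0.198 to 0.255) and that of Ptgis 0.550-fold (0.527 to 0.575), all lower in DEN+WAD. Hpgd was at 0.693-fold (0.644 to 0.746) and Tbxa2r at 0.488-fold (0.440 to 0.542). Ptger2 was higher, at 5.10-fold (4.08 to 6.45), while Ptger4 at 1.14-fold (0.962 to 1.36) and Ptgs1 at 0.969-fold (0.703 to 1.35) had intervals that reached both sides of 1. Of 8 members measured, 1 was 2-fold or more higher and 2 lower (Ptges and Tbxa2r), where 3.76% and 7.03% of 12313 genes were. The median log2 ratio of the 8 was -0.69, and of all genes -0.09. The stellate markers summed to 6784 CPM in these DEN+WAD cells and to 1616 CPM in the chow cells. These ratios are over the whole class, and ratios within subsets are given below.

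Ptgs1 was again different over the whole VitA-Col1a1+ library, at 36.4 CPM in DEN+WAD and 16.8 in chow, 2.17-fold (1.90 to 2.49). Within its endothelial cells the ratio was 0.910-fold (0.774 to 1.08), and within mesenchymal cells near 1 as given above. Endothelial cells made up 16.1% of the DEN+WAD library and 5.39% of the chow library. Over whole libraries 2 of 8 members were 2-fold or more higher (Ptgs1 and Ptger2) and 2 lower (Ptgs2 and Ptges), against 5.97% and 6.72% of genes. Endothelial Hpgd was at 0.384-fold (0.338 to 0.438) and endothelial Tbxa2r at 0.411-fold (0.310 to 0.553), from 36 chow cells of which 5 held 50% of the 303 Hpgd UMIs. Endothelial Ptgis had 0 UMIs in chow and stood at least 7.32-fold above that floor in DEN+WAD. Of 7 members measured in endothelial cells, 1 was past 2-fold higher and 3 lower, against 8.17% and 8.62% of genes, and the third lower member, Ptges, rested on 1 and 2 UMIs and is given no ratio.

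**Figure D2:**
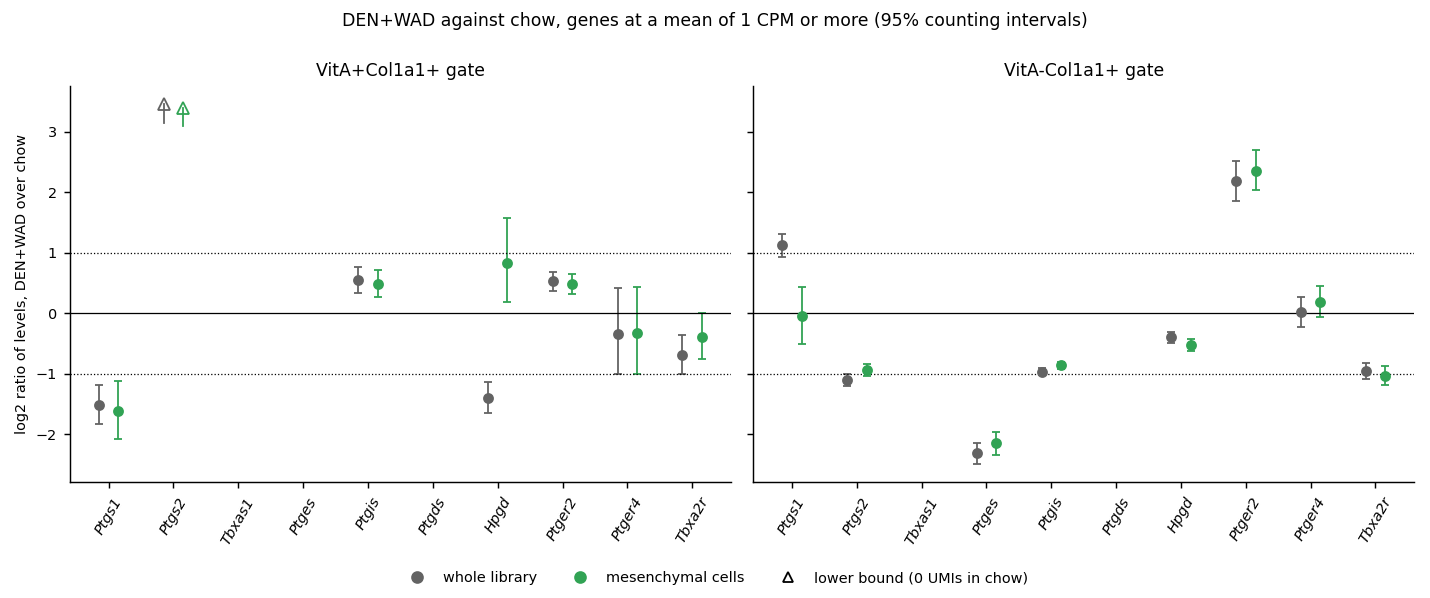
Log2 ratio of levels, DEN+WAD over chow (vertical axis), for each member in the VitA+Col1a1+ gate (left) and the VitA-Col1a1+ gate (right), over the whole library (grey) and in mesenchymal cells (green), with 95% counting intervals, dotted lines at 2-fold and triangles for lower bounds. In mesenchymal cells Ptger2 stands at 2.35 and Ptges at -2.15 in the VitA-Col1a1+ gate, and members without a point had a mean level under 1 CPM.

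The vitamin A gates were then compared with each other. In DEN+WAD mesenchymal cells Ptges was 74.4-fold higher in VitA-Col1a1+ than in VitA+Col1a1+ cells (47.5 to 123), Ptgs2 9.31-fold (8.57 to 10.1), Hpgd 9.25-fold (8.54 to 10.0), Ptger4 5.71-fold (4.99 to 6.54), Ptgis 3.05-fold (2.94 to 3.17) and Tbxa2r 2.57-fold (2.36 to 2.81). Ptger2 was 2.76-fold lower, and Ptgs1 was at 1.51-fold (1.23 to 1.84). Thus 6 of 8 members were 2-fold or more higher, against 9.27% of 11951 genes, and 1 was lower, against 2.01%.

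In chow the ratios between the gates were further from 1 for Ptgs2, Ptges, Hpgd, Ptgis, Tbxa2r and Ptger2 and nearer to 1 for Ptger4, and the difference between chow and DEN+WAD in these ratios was not tested. Ptgs2 was at least 188-fold higher in VitA-Col1a1+ cells, and the ratio of Ptges was 262-fold with an interval from 46.9 to 10383, since it rested on 1 UMI in VitA+ cells. Hpgd was 23.7-fold higher (15.1 to 39.6), Ptgis 7.73-fold (6.64 to 9.06), Tbxa2r 4.03-fold (3.11 to 5.30) and Ptger4 3.98-fold (2.45 to 6.88). Ptger2 was 10.1-fold lower, and Ptgs1 was at 0.508-fold (0.333 to 0.778). This again made 6 of 8 higher, against 14.8% of 12261 genes, and 1 lower, against 7.45%. The median log2 ratio of the 8 members was 2.06 in DEN+WAD and 2.48 in chow, and of all genes 0.04 and 0.08. Fibroblast list genes moved with the gate: the 8 genes Mfap4, Clec3b, Entpd2, Thy1, Fbln2, Dpt, Fbln1 and Pi16 summed to 84.2 CPM in VitA+ and 1661 CPM in VitA- mesenchymal cells of DEN+WAD, and to 32.5 and 4019 CPM in chow.

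Mesenchymal cells were therefore split by which lists they met, with 3 or more list genes detected, and comparisons of DEN+WAD with chow within these subsets were added after seeing the data. Cells meeting the stellate list only were 80.9% and 77.0% of mesenchymal cells in VitA+Col1a1+ DEN+WAD and chow and 45.6% in VitA-Col1a1+ DEN+WAD, and they numbered 21 in VitA-Col1a1+ chow, too few to be given. Cells meeting both the stellate and the fibroblast list were 1.07% of VitA+Col1a1+ DEN+WAD against 24.2% of VitA-Col1a1+ DEN+WAD and 47.1% of VitA-Col1a1+ chow. The smooth muscle list (Myh11, Actg2, Cnn1, Des, Rgs5 and Myocd) was met by 17.1% to 41.9% of mesenchymal cells. Detection depends on depth, and in VitA-Col1a1+ DEN+WAD the median was 15830 UMIs in cells meeting the stellate list only and 21032 in cells meeting both lists.

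Ptgs2 followed the fibroblast list within single libraries. In VitA+Col1a1+ DEN+WAD its level was 4.57 CPM in the 8262 cells meeting the stellate list only and 51.4 CPM in the 109 cells meeting both lists, 11.2-fold higher (9.20 to 13.7). In VitA-Col1a1+ DEN+WAD its level was 6.14 CPM in cells meeting the stellate list only, 105 CPM in cells meeting both and 143 CPM in cells meeting the fibroblast list only. The step from stellate only to both lists was 17.0-fold there (13.9 to 21.2) and 5.78-fold (4.74 to 7.09) in the library labelled VitA-Col1a1-. Stellate-only cells of the VitA+ and VitA- DEN+WAD libraries thus differed far less in Ptgs2 (4.57 and 6.14 CPM) than all their mesenchymal cells did. Among cells of 10000 to 30000 UMIs, a range chosen after seeing the data, the levels in VitA-Col1a1+ DEN+WAD were 6.09, 106 and 134 CPM in the same order.

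Ptges, Ptgis, Hpgd and Ptger4 had the same order in VitA-Col1a1+ DEN+WAD. Ptges was at 0.125 CPM in stellate-only cells, 21.9 in cells meeting both lists and 49.8 in cells meeting the fibroblast list only. Ptgis was at 53.8, 227 and 318 CPM in those cells, Hpgd at 21.1, 108 and 136 CPM, and Ptger4 at 7.21, 24.0 and 29.4 CPM. The same steps from stellate-only cells to cells meeting both lists were 3.64-fold for Ptgis (3.26 to 4.06), 4.77-fold for Hpgd and 3.43-fold for Ptger4 in VitA+Col1a1+ DEN+WAD. The chow library of the VitA- gate had the last 2 subsets in the other order for 3 of these genes, with Ptges at 73.4 CPM in cells meeting both lists and 51.1 in the 44 cells meeting the fibroblast list only, Hpgd at 118 and 62.1 CPM, and Ptger4 at 16.6 and 11 CPM, and only the intervals of Hpgd did not overlap.

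Ptger2 went the other way in every library where both could be given. It was at 84.5 CPM in stellate-only and 36.1 CPM in both-list cells of VitA+Col1a1+ DEN+WAD, at 47.8 and 10.5 CPM in those of VitA-Col1a1+ DEN+WAD, and at 27.7 and 12.9 CPM in the library labelled VitA-Col1a1-. Cells meeting the fibroblast list only held 2.49 CPM in VitA-Col1a1+ DEN+WAD. Stellate-only cells themselves still differed between VitA+ and VitA- DEN+WAD, 84.5 against 47.8 CPM.

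**Figure D3:**
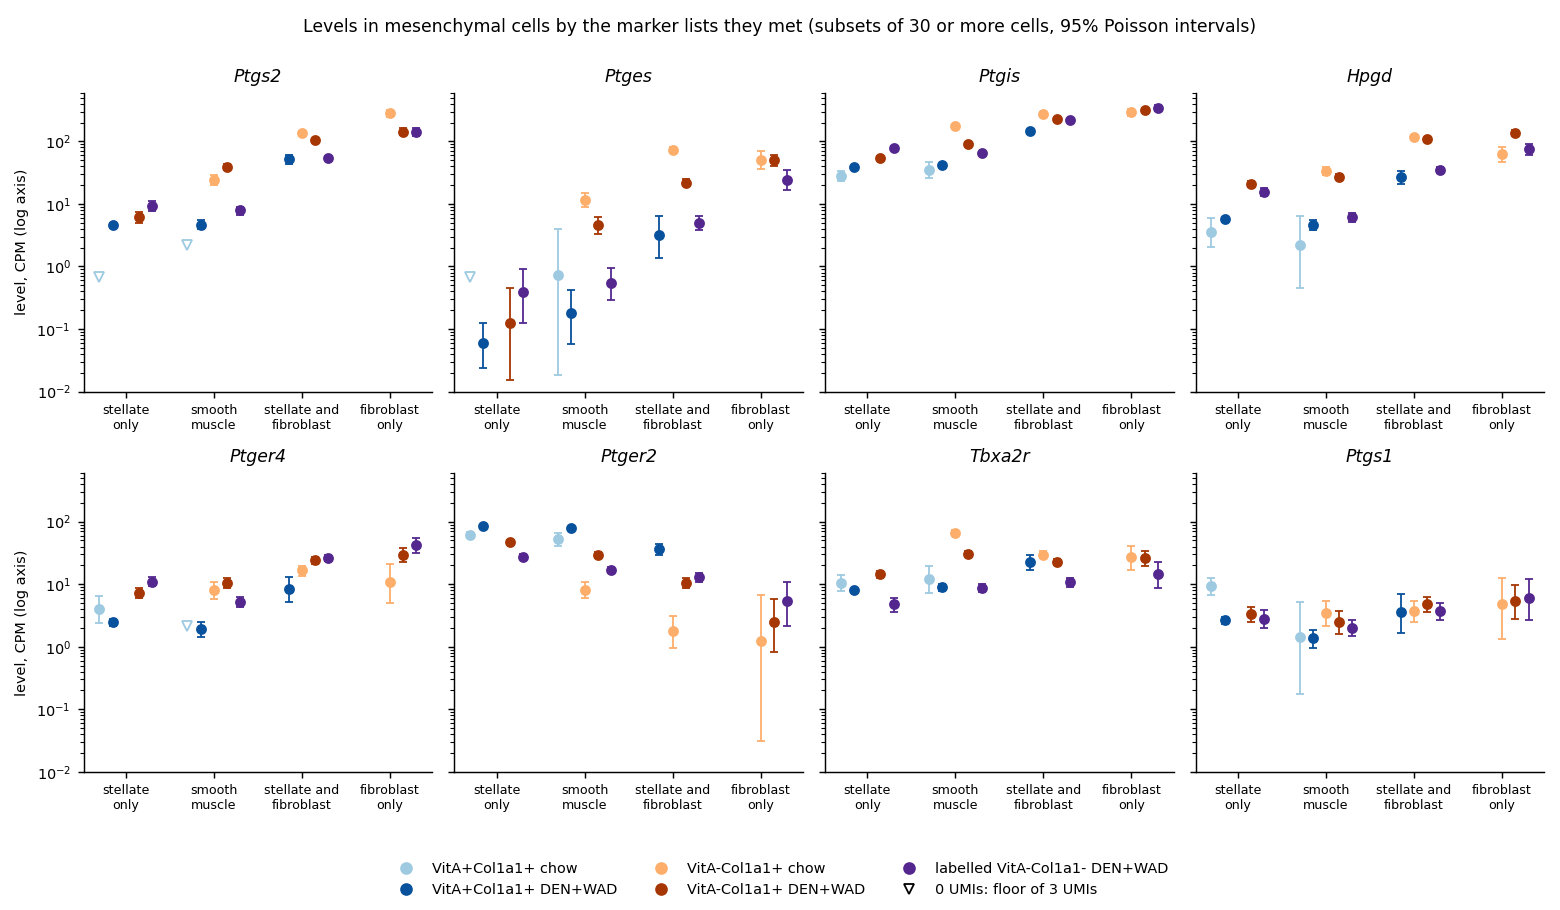
Level (vertical axis, CPM, log scale) of 8 members in mesenchymal cells grouped by the marker lists they met, for each library with 30 or more such cells, with 95% Poisson intervals and triangles for the floor at 0 UMIs. In the 3 DEN+WAD libraries Ptgs2 and Ptgis are higher, and Ptger2 lower, in cells meeting both the stellate and the fibroblast list than in cells meeting the stellate list only.

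Among mesenchymal subsets, Tbxa2r was highest in cells meeting the smooth muscle list of VitA-Col1a1+ chow, at 66.7 CPM, against 29.8 CPM in both-list cells of that library. In VitA-Col1a1+ DEN+WAD these levels were 30.8 and 22.7 CPM. The order was the other way in the remaining DEN+WAD libraries, with 9.0 CPM in smooth muscle list and 22.5 CPM in both-list cells of VitA+Col1a1+ and 8.63 and 10.7 CPM in those labelled VitA-Col1a1-, where the intervals overlapped. Mesenchymal Ptgs1 stayed between 1.36 and 9.23 CPM in all subsets given.

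Within subsets, the difference between DEN+WAD and chow in the VitA-Col1a1+ gate depended on the gene. Ptger2 was 5.83-fold higher in DEN+WAD in cells meeting both lists and 3.64-fold higher in smooth muscle list cells. Ptges had a log2 ratio of -1.75 in both-list cells (-1.97 to -1.53), -1.34 in smooth muscle list cells, and -0.04 in cells meeting the fibroblast list only (-0.57 to 0.52). Ptgs2 was at -0.40 in both-list cells (-0.52 to -0.28) and at -0.98 in fibroblast-only cells, but at 0.70 (0.42 to 0.99) in smooth muscle list cells, where its level was 39.2 CPM in DEN+WAD and 24.1 CPM in chow. Among smooth muscle list cells of 10000 to 30000 UMIs the levels were 15.2 and 20.3 CPM, so the direction turned when depth was restricted. Ptgis was at -0.29 in both-list cells, 0.12 in fibroblast-only cells and -0.95 in smooth muscle list cells. In the same order Tbxa2r was at -0.39 (-0.66 to -0.13), -0.02 (-0.76 to 0.77) and -1.12 (-1.34 to -0.90). Ptger4 was at 0.54 (0.22 to 0.86), 1.42 (0.40 to 2.62) and 0.39 (-0.12 to 0.92). Hpgd in fibroblast-only cells was at 1.13 (0.69 to 1.59), from 44 chow cells. In VitA+Col1a1+ stellate-only cells, Ptgs1 was at -1.81 (-2.28 to -1.30) and Ptgs2 at least 6.77-fold higher, and Hpgd at 0.65 had an interval from -0.06 to 1.46.

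Macrophage cells were split by the Kupffer list (Clec4f, Timd4, Vsig4, Cd5l, Marco and Folr2), which marks resident liver macrophages, and a monocyte list (Ccr2, Ly6c2, Chil3, Fn1, Itgax and Plac8). The 427 cells meeting the Kupffer list only held Ptgis at 41.9 CPM, and the 246 cells meeting neither list held 1.53 CPM, a ratio of 27.5-fold (11.6 to 85.2). Hpgd was 2.89-fold higher in the Kupffer cells (457 against 158 CPM, 2.63 to 3.18) and Ptgs1 2.29-fold higher (280.1 against 123 CPM, 2.05 to 2.55). Tbxas1 hardly differed, at 137 against 120.4 CPM, 1.13-fold (1.01 to 1.28). Ptger4 was at 48.2 CPM in the 47 cells meeting the monocyte list only, against 18.1 CPM in Kupffer-only cells. Ptgs2 was between 21.1 and 29.6 CPM in all 4 macrophage subsets.

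Ptgis, Hpgd and Ptgs1 were also found in endothelial cells, so endothelial markers in the macrophage class are given beside them. Of the 5 genes of the endothelial rule, Cdh5 was at 174 CPM and Stab2 at 38.6 CPM in macrophage cells, Pecam1 at 18.5 CPM, and Kdr and Ptprb each at 2.06 CPM, which is 21.1%, 6.21%, 2.71%, 0.131% and 0.0761% of their endothelial levels. Cells that met that rule had been left out of the class. The sinusoidal list, which is outside the rule, summed to 46.9 CPM in macrophage and 4736 CPM in endothelial cells. Ptgis in macrophage cells was at 24.4% of its mesenchymal level, and Lrat at 0.547%. The 305 cells that met both the endothelial and the macrophage rule, which were in no class, held Ptgs1 at 341 CPM, Hpgd at 532 CPM, Tbxas1 at 136 CPM and Ptgis at 36.5 CPM. Whether RNA of endothelial cells was part of the levels in Kupffer-only cells was not tested.

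**Figure D4:**
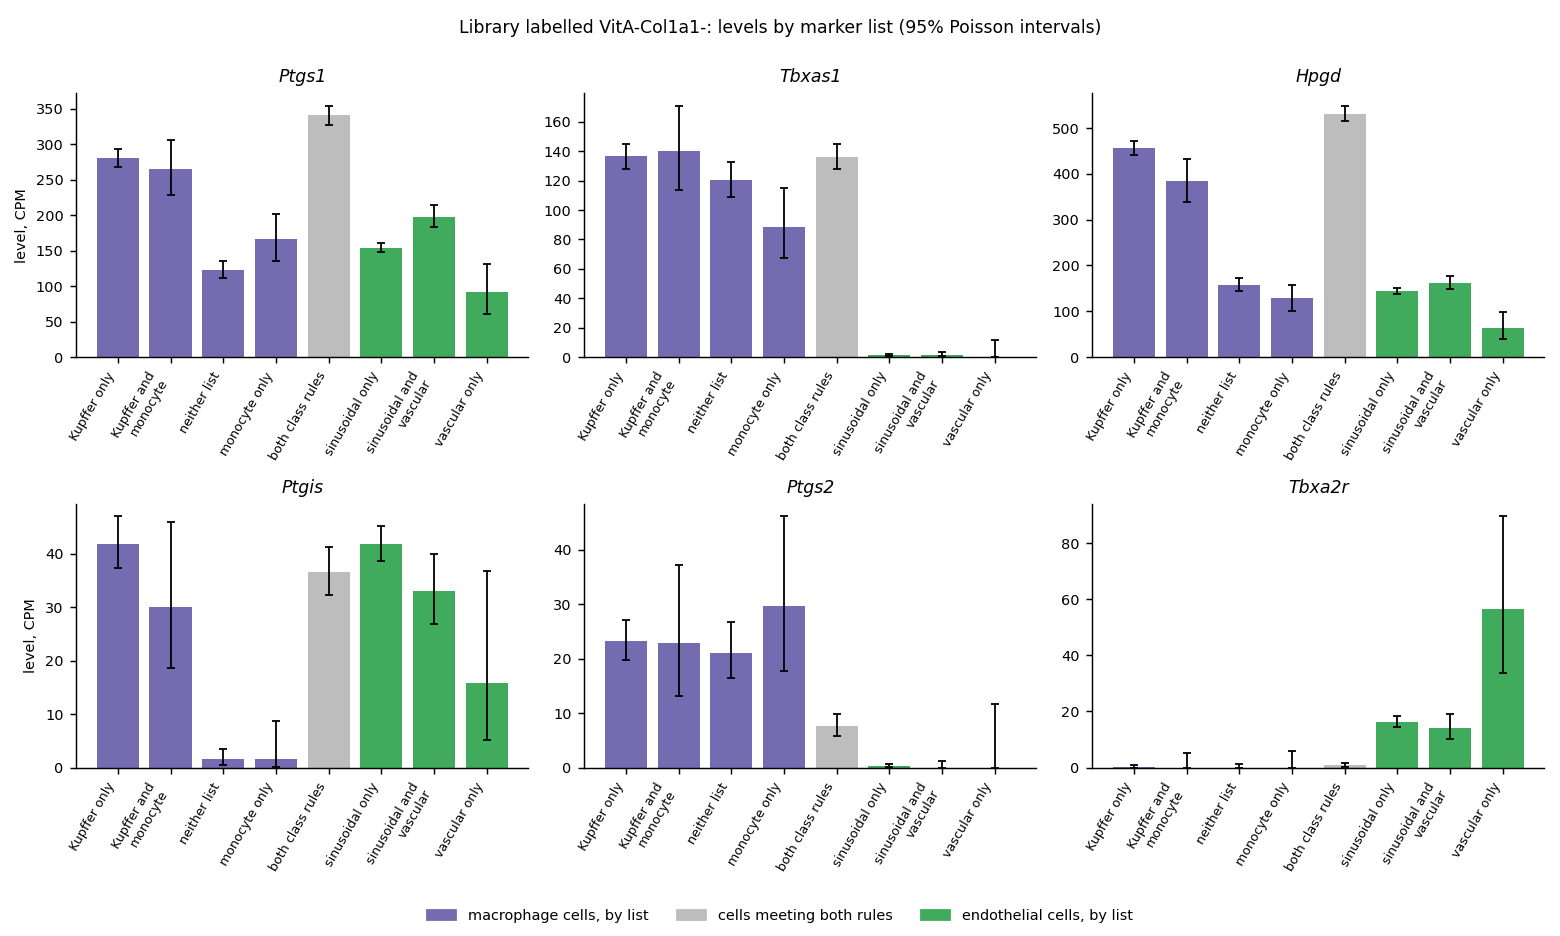
Level (vertical axis, CPM from 0) of 6 members in macrophage cells (purple), in cells that met both the endothelial and the macrophage rule (grey) and in endothelial cells (green) of the library labelled VitA-Col1a1-, each class split by marker list, with 95% Poisson intervals. Tbxas1 is between 88.7 and 140.4 CPM in all macrophage subsets and near 0 in endothelial cells, and Ptgis is near 0 in the macrophage cells without the Kupffer list.

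Endothelial cells of the same library met a sinusoidal list in most cases, of which the 5 genes Stab1, Clec4g, Oit3, Gpr182 and Lyve1 were counted. The 1936 cells meeting it alone held Ptgs1 at 154 CPM, Hpgd at 144 CPM, Ptgis at 41.9 CPM and Tbxa2r at 16.3 CPM. The 43 cells meeting only the vascular list (Vwf, Cd34, Ly6c1, Sox17, Gja5, Rspo3 and Sele) held Ptgs1 at 91.4 CPM, Hpgd at 63.0 CPM and Tbxa2r at 56.7 CPM. Tbxa2r was thus 3.48-fold higher in the vascular cells.

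Some cells of that library met no class rule. Among them, 101 cells meeting a T or NK list held Ptger4 at 102 CPM and Tbxa2r at 15.5 CPM, and 48 cells meeting the monocyte list held Ptger4 at 92.0 CPM and Ptgs2 at 84.5 CPM. These Ptger4 levels were above those of all 3 classes. In 550 cells meeting a hepatocyte list Hpgd was at 28.4 CPM. The highest Ptgds level was 11.1 CPM, in 110 cells meeting 2 or more of the lists.

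Shares of cells with at least 1 UMI were compared after each cell was thinned to 2000 UMIs, with the full-depth share beside it. Ptgs2 was found in 8.58% of mesenchymal cells of VitA-Col1a1+ chow (20.8% at full depth), 4.18% of VitA-Col1a1+ DEN+WAD (13.4%), 2.63% of the library labelled VitA-Col1a1- (6.68%) and 0.755% of VitA+Col1a1+ DEN+WAD (2.67%). In VitA+Col1a1+ chow the count was 0 of 241 cells, with a Clopper-Pearson upper limit of 1.52%. The endothelial share of a library is given beside these where there was one, and whether it was background was not tested. It was 1 of 2277 cells (0.0439%, and 0.170% at full depth) in the library labelled VitA-Col1a1-, whose median was 7890 UMIs in endothelial and 10652 in mesenchymal cells, and 0 of 438 cells in VitA-Col1a1+ DEN+WAD (upper limit 0.839%). In VitA+Col1a1+ DEN+WAD it was 1 of 175 cells, 0.571%, with an interval from 0.0145 to 3.14 that held the 0.755% of its mesenchymal cells. At full depth 1 of its 177 endothelial cells held all 5 Ptgs2 UMIs of the class. In VitA-Col1a1+ chow it was 1 of 35 cells, 2.86%, with an interval from 0.0723 to 14.9 that also held the mesenchymal share.

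Ptges was found in 7.92% of thinned mesenchymal cells of VitA-Col1a1+ chow (34.0% at full depth) and 1.60% of VitA-Col1a1+ DEN+WAD (10.6%). For Ptgis the shares were 32.2% and 17.2% in the same libraries, against 6.22% and 6.68% in VitA+Col1a1+ chow and DEN+WAD. Ptger2 had the reverse order, 15.6% and 12.4% in VitA+Col1a1+ DEN+WAD and chow, 6.77% in VitA-Col1a1+ DEN+WAD and 0.990% in VitA-Col1a1+ chow. Endothelial cells of the library labelled VitA-Col1a1- had it in 0 of 2277 thinned cells, with an upper limit of 0.162%, and in 0.426% at full depth. Tbxas1 was found in 21.2% of thinned macrophage cells (68.7% at full depth), 0.220% of endothelial and 0.15% of mesenchymal cells of that library. Ptgs1 was found in 23.5% to 34.3% of thinned endothelial cells, in 32.2% of macrophage cells and in 0.330% to 1.24% of mesenchymal cells.

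**Figure D5:**
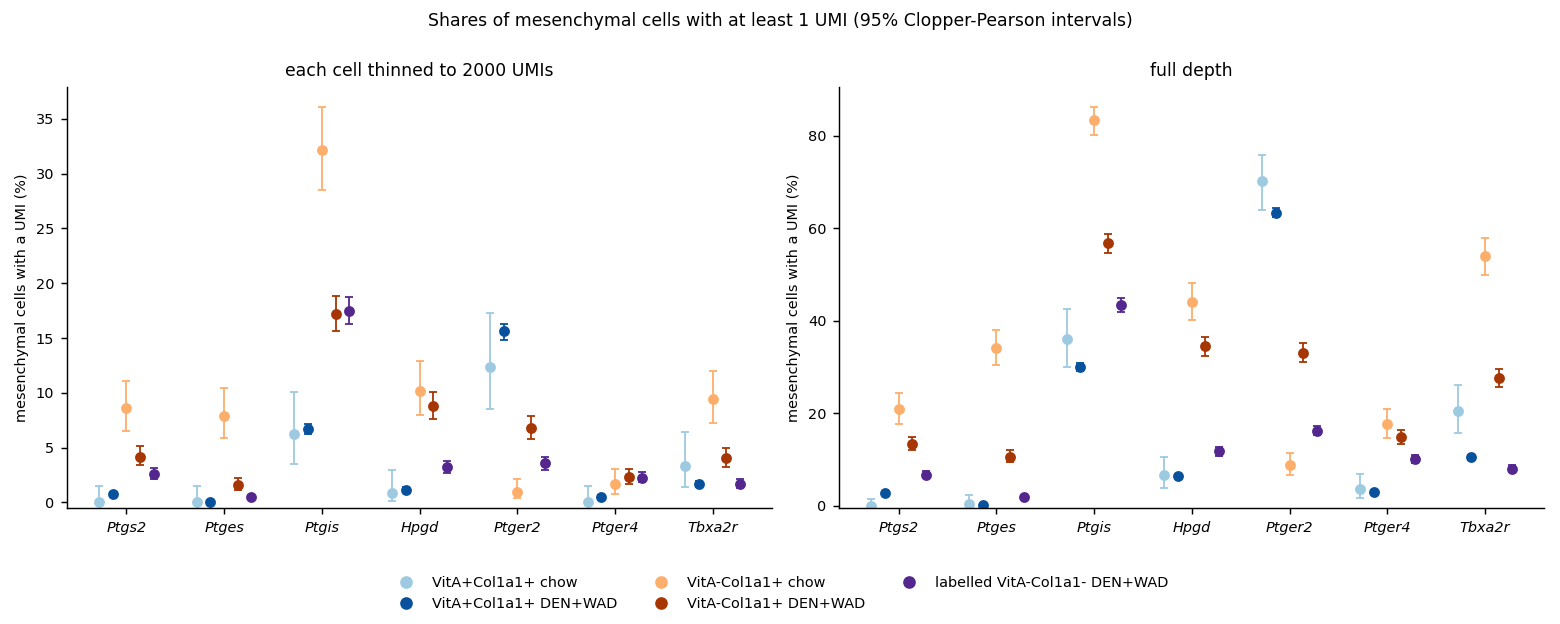
Share of mesenchymal cells with at least 1 UMI (vertical axis, percent) of 7 members in each library, after thinning each cell to 2000 UMIs (left) and at full depth (right), with 95% Clopper-Pearson intervals. For Ptgs2, Ptges, Ptgis and Tbxa2r the VitA-Col1a1+ chow library is highest in both panels, while Ptger2 is highest in the VitA+Col1a1+ libraries.

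Ptgs2 was concentrated in few cells. In VitA-Col1a1+ DEN+WAD 292 mesenchymal cells held its 1990 UMIs, 28 of them held 50%, and 1 cell held 186. In VitA-Col1a1+ chow 11 of 128 cells with a UMI held 50% of 1366, and the top cell held 172. In VitA+Col1a1+ DEN+WAD 35 of 273 cells with a UMI held 50% of 793, and the top cell held 34. Ptger2 was spread more evenly, with 6467 cells of VitA+Col1a1+ DEN+WAD holding its 12174 UMIs and 1814 of them holding 50%.

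The wider eicosanoid pathway was described from a list of 38 genes of arachidonate release, other synthases, transport, other receptors and leukotriene synthesis, of which 26 reached 10 CPM in some class. In VitA-Col1a1+ mesenchymal cells, 23 were measured, 0 were 2-fold or more higher in DEN+WAD and 6 were lower, against 3.76% and 7.03% of all genes. In VitA+Col1a1+ mesenchymal cells 2 of 18 were higher and 0 lower, against 2.80% and 4.32%. The other prostanoid receptor genes measured in VitA-Col1a1+ mesenchymal cells were lower in DEN+WAD. The make-up of that class differed, with stellate-only cells at 45.6% in DEN+WAD and 3.42% in chow. Levels of these genes within subsets are not given. Ptger3, a Gi-coupled E receptor gene, was at 7.45 CPM against 22.6 in chow, 0.329-fold (0.280 to 0.386). Ptgir, the prostacyclin receptor gene, was at 8.86 against 20.4 CPM, 0.435-fold (0.371 to 0.510), and Ptger1 at 5.91 against 11 CPM, 0.535-fold (0.435 to 0.660). Ptger2 was higher and Ptger4 near 1 over the whole class, while Ptger4 was higher in both-list and fibroblast-only cells, as given above.

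Upstream and downstream of the members, the classes differed as well. Pla2g4a, the cytosolic phospholipase that releases arachidonate, was at 62.9 CPM in macrophage cells, 9.45 to 28.0 CPM in mesenchymal cells and at most 1.26 CPM in endothelial cells. Hpgds, the hematopoietic prostaglandin D synthase gene, was at 104 CPM in macrophage cells. The prostaglandin transporter genes Slco2a1 (uptake) and Abcc4 (export) were at 263 to 548 CPM and 59.9 to 91.8 CPM in endothelial cells. Cyp1b1, a cytochrome P450 gene, was at 5.28 CPM in mesenchymal cells of VitA+Col1a1+ DEN+WAD against 47.7 in VitA-Col1a1+ DEN+WAD, and had 0 UMIs in VitA+Col1a1+ chow against 69.3 CPM in VitA-Col1a1+ chow. Macrophage cells, high in Tbxas1, held Cyp1b1 at 0.257 CPM.

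The genes whose profile was most like each member were found by Pearson correlation of log2(CPM + 1) over the 9 library by class groups of 50 or more cells, among 8714 genes at 20 CPM or more in some group. They were Prkar1b (0.970), Steap3 and Thrb for Ptgs2, Bmp3 (0.996), Col8a2 and Lrrtm3 for Ptges, and Scn7a (0.992), D630003M21Rik and Jph2 for Ptgis. For Ptgs1 they included Mfsd1 (0.993) and Synj1, for Tbxas1 Parvg (0.991), P2ry12 and Amz1, and for Hpgd Hvcn1 (0.968), Slc3a2 and Khk. For the receptors they were Fam58b (0.988), Hnmt and Tnfrsf21 with Ptger2, Atic (0.977), 1110008P14Rik and Dram1 with Ptger4, and Meis1 (0.987), Slc35e4 and Ddx3y with Tbxa2r. Groups of the same library are not independent, and with 9 groups high values are easily reached.

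In GRCm38 with GENCODE M21, 4 members lie on chromosome 2: Ptgds (ENSMUSG00000015090) at chr2:25466709-25470046 on the minus strand, Ptges (ENSMUSG00000050737) at chr2:30889471-30929863 on the minus strand, Ptgs1 (ENSMUSG00000047250) at chr2:36230426-36252272 on the plus strand and Ptgis (ENSMUSG00000017969) at chr2:167191805-167240604 on the minus strand. Ptgs2 (ENSMUSG00000032487) is at chr1:150100031-150108227 (plus), Tbxas1 (ENSMUSG00000029925) at chr6:38875404-39084585 (plus) and Hpgd (ENSMUSG00000031613) at chr8:56294585-56321043 (plus). The receptor genes are Tbxa2r (ENSMUSG00000034881) at chr10:81328731-81335172 (plus), Ptger2 (ENSMUSG00000037759) at chr14:44988195-45003820 (plus) and Ptger4 (ENSMUSG00000039942) at chr15:5206661-5244187 (minus). Tbxas1, Ptges and Hpgd each overlap another annotated gene on the same strand (Gm23010, Gm13400 and Gm45540), and how the counting treated such reads was not given in the sources used here.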

How the data were processed

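Cells were sorted from mouse liver and libraries made with 10x Genomics droplets by the authors, and the labels name different versions of the kit for the same libraries. The authors aligned reads to mm10 and counted with Cell Ranger, version 3.1.0 per the file headers of the 4 Col1a1+ libraries and 6.1.2 for the library labelled VitA-Col1a1-. The deposited matrices held UMI counts that had not been normalized, and all barcodes in them were used. Groups came from the labels, 1 library each, so no test was made. The members, gene lists and comparisons were chosen with earlier results of these data known. UMIs were summed per library and class and scaled to 1000000. A gene was measured in a comparison at a mean of 1 CPM or more and named from the wider list at 10 CPM or more in a class of 30 or more cells, and a count of 0 was set to a floor of 3 UMIs. The 3 most similar genes were named per member, apart from 1 that is not reported here. Subset definitions by marker list were applied at 3 or more genes detected. Computation used Python 3.11.15, numpy 2.4.6, scipy 1.17.1, pandas 2.3.3 and matplotlib 3.10.9, with edgeR 4.0.16 in R 4.3.3 for TMM factors only, and the ratio code was tested on simulated data. Alternatives were other cell filters, class rules, scaling, thinning and minimum levels.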

Additional observations from a re-analysis of the deposited data

Results flagged for a closer look

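The log2 ratio of DEN+WAD to chow pointed opposite ways in the VitA+Col1a1+ and the VitA-Col1a1+ gate, with counting intervals that left out 0 on both sides, for 4 members, each gate being 1 library against 1 library, and the difference between the gates was not tested. In mesenchymal cells it was at least 3.39 and -0.94 for Ptgs2, 0.48 and -0.86 for Ptgis, and 0.83 and -0.53 for Hpgd. The Ptgs2 UMIs lay in few cells, so the counting intervals of Ptgs2 are too narrow. With 3 chow cells that met 2 class rules kept, Hpgd in the VitA+Col1a1+ gate was at -0.53, and in cells meeting the stellate list only it was at 0.65 (-0.06 to 1.46). In the VitA-Col1a1+ gate the values varied with the subset. Hpgd was at 1.13 in fibroblast-only, -0.12 in both-list and -0.31 in smooth muscle list cells. Ptgis was at 0.12, -0.29 and -0.95 in that order, and Ptgs2 at -0.98, -0.40 and 0.70. With depth restricted as given above, smooth muscle list cells held Ptgs2 at 15.2 CPM in DEN+WAD and 20.3 CPM in chow, with overlapping intervals. Over whole libraries the log2 ratio was at least 3.45 and -1.11 for Ptgs2, 0.55 and -0.97 for Ptgis, and -1.52 and 1.12 for Ptgs1. The opposite signs of Ptgs1 were not seen in mesenchymal cells, where its values were -1.62 and -0.04. Ptger4 also had opposite signs in mesenchymal cells, -0.33 and 0.19, with intervals that held 0.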

How the results depend on the processing

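No paired analysis was possible because each group held 1 library, and no library could be left out for the same reason. Counts of members past 2-fold rested on few genes. With a minimum mean of 10 CPM, the VitA+Col1a1+ counts became 0 higher and 1 lower over whole libraries and 0 higher and 0 lower in mesenchymal cells, and the lower counts became 2 for endothelial over mesenchymal, 1 for macrophage over mesenchymal and 0 for macrophage over endothelial cells. With cells meeting 2 or more class rules kept, higher counts became 2 in VitA-Col1a1+ endothelial cells and 3 for macrophage over endothelial cells. As a mean over cells, the lower count over whole VitA-Col1a1+ libraries became 4, and under TMM scaling that of VitA-Col1a1+ mesenchymal cells became 1. The lower count of VitA- over VitA+ in chow became 2 with overlapping cells kept, as a mean over cells, under TMM scaling and with the mesenchymal threshold at 50. TMM scaling shifted log2 ratios of DEN+WAD to chow by 0.19 and 0.16 in VitA+Col1a1+ whole libraries and mesenchymal cells and by 0.08 and 0.15 in VitA-Col1a1+. The direction of 2 results reversed among the alternatives counted. Hpgd in VitA+Col1a1+ mesenchymal cells became -0.53 when 3 chow cells meeting 2 rules were kept. Ptgs2 in VitA-Col1a1+ mesenchymal cells became 0.70 in smooth muscle list cells, an alternative chosen after seeing the data. With depth restricted as given above, those cells held Ptgs2 at 15.2 CPM in DEN+WAD and 20.3 CPM in chow, so that reversal was not kept. Fibroblast-only cells were not among the alternatives counted. In them VitA-Col1a1+ Hpgd was at 1.13, against -0.53 in all mesenchymal cells. The cause of these changes was not tested. Over all alternatives 15 of these counts moved by more than 1.5 times or to or from 0 and 97 moved by less or stayed, and 68 member ratios moved out of their counting interval and 311 did not. The 36 endothelial cells of VitA-Col1a1+ chow and the 259 cells of VitA+Col1a1+ chow limit the precision of the ratios to chow.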
